A study of Mus musculus with 9 samples.

Results

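Interferon-stimulated genes, the genes that cells switch on in response to interferon, were followed in cultured mouse mast cells as a fixed list of 38 gene symbols. The members are given by name, and all 38 symbols were found among the 23951 rows of the deposited table. The cells were grown for 4 to 6 weeks from bone marrow of wild type C57BL/6 mice in IL-3 and SCF (stem cell factor), both at 10 ng/ml, and over 95% of them carried FcER1, the high-affinity IgE receptor, and CD117, per the labels. Each of 3 groups had 3 RNA sequencing libraries. The untreated group received neither agent, the IgE group received 0.5 µg/ml DNP-IgE for 18 h, and the antigen group received the same IgE followed by 50 ng/ml DNP-BSA, the hapten-carrying protein that cross-links receptor-bound IgE, for 2 h. All 3 groups share the strain, the genotype and both growth factors. The labels do not state whether replicates came from separate cultures, and every p-value therefore reflects the spread of these libraries alone, which may be technical.

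Type I interferon binds the receptor chains encoded by Ifnar1 and Ifnar2, and the Janus kinases JAK1 and TYK2 then phosphorylate STAT proteins. STAT2 and IRF9 are parts of the complex ISGF3, which binds the interferon-stimulated response element (ISRE), whereas interferon gamma acts on the gamma-activated site (GAS). Many of the induced proteins act on viral RNA, viral entry or pathogen vacuoles, and cells that have met no virus can keep a low level of these transcripts. USP18 and SOCS1 are feedback inhibitors of the pathway.

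The spacing of low FPKM values gave estimated depths of 30100000 to 33400000 reads in untreated, 32600000 to 39800000 in IgE and 21100000 to 28800000 in antigen libraries. At the lowest of these depths a transcript of 2 kb at 1 FPKM rests on about 42.2 reads, a counting error of 15.4%, and at 10 FPKM the counting error is 4.87%. Of the 14 listed mast cell markers, 12 were above the filter used for testing, with Fcer1a at group means of 4815 to 5652 FPKM, while Cpa3 and Cma1 were listed at 0 in all 9 libraries. An exact 0 in this table can be a failed estimate: antigen replicate 3 had 411 of 411 genes of chromosome X at 0 that were above 0 in the other 8 libraries, and no listed interferon-stimulated gene lies on that chromosome. The 8 markers of plasmacytoid dendritic cells, a major interferon source, were all under 1 FPKM in every library. The 12 monocyte and macrophage markers summed to 231 to 245 FPKM in untreated, 179 to 199.6 in IgE and 103 to 105 in antigen libraries, so this sum was lower where many of the genes described here were lower. That sum rested mostly on Ccr2, Lyz2 and Cx3cr1, whereas C1qa, C1qb, C1qc, Mrc1 and Ms4a7 stayed under 1 FPKM and the first 3 of these were listed at 0 in 8, 7 and 3 libraries, and the part of such cells in the results was not tested. Not every marker went down: Cd14, which passed the filter only through the antigen group, rose from 0.714 ± 0.0632 FPKM in IgE libraries to 3.45 ± 0.413 in antigen libraries, and Marco was at 10.1 ± 0.831 FPKM in untreated and 12.2 ± 0.867 in IgE libraries (adjusted p = 0.125) before falling to 8.82 ± 1.40 with antigen. In bulk RNA, fewer cells of a type and less RNA per cell cannot be told apart.

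Levels of the 38 genes ran over more than 3 orders of magnitude. FPKM is a level per kilobase of transcript, so it allows a rough comparison between genes. Reads shared by close paralogs, such as the Ifitm genes, may be split in an unknown way. Ifitm1, at a group mean of 5318 FPKM in untreated cells, and Ifitm2, at 1221 FPKM, stood far above the rest, Ifitm3 was at 108 FPKM, and the next was Bst2 at 22.8 FPKM. For testing, at least 1 FPKM in at least 3 libraries was required, which 25 of the 38 met. The 13 below it were Cmpk2, Ifi44, Ifit1, Ifit3, Iigp1, Mx1, Mx2, Oas2, Oas3, Oasl1, Oasl2, Rtp4 and Zbp1. Rsad2 met the filter only through the antigen group, where it is high, so its difference was built into the choice. Ifit2, Dhx58 and Xaf1 met it only through untreated and IgE libraries, with all antigen libraries under 1 FPKM. Their falls with antigen were tied to the choice in the same way, and counts over the 25 are descriptions.

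**Figure D1:**
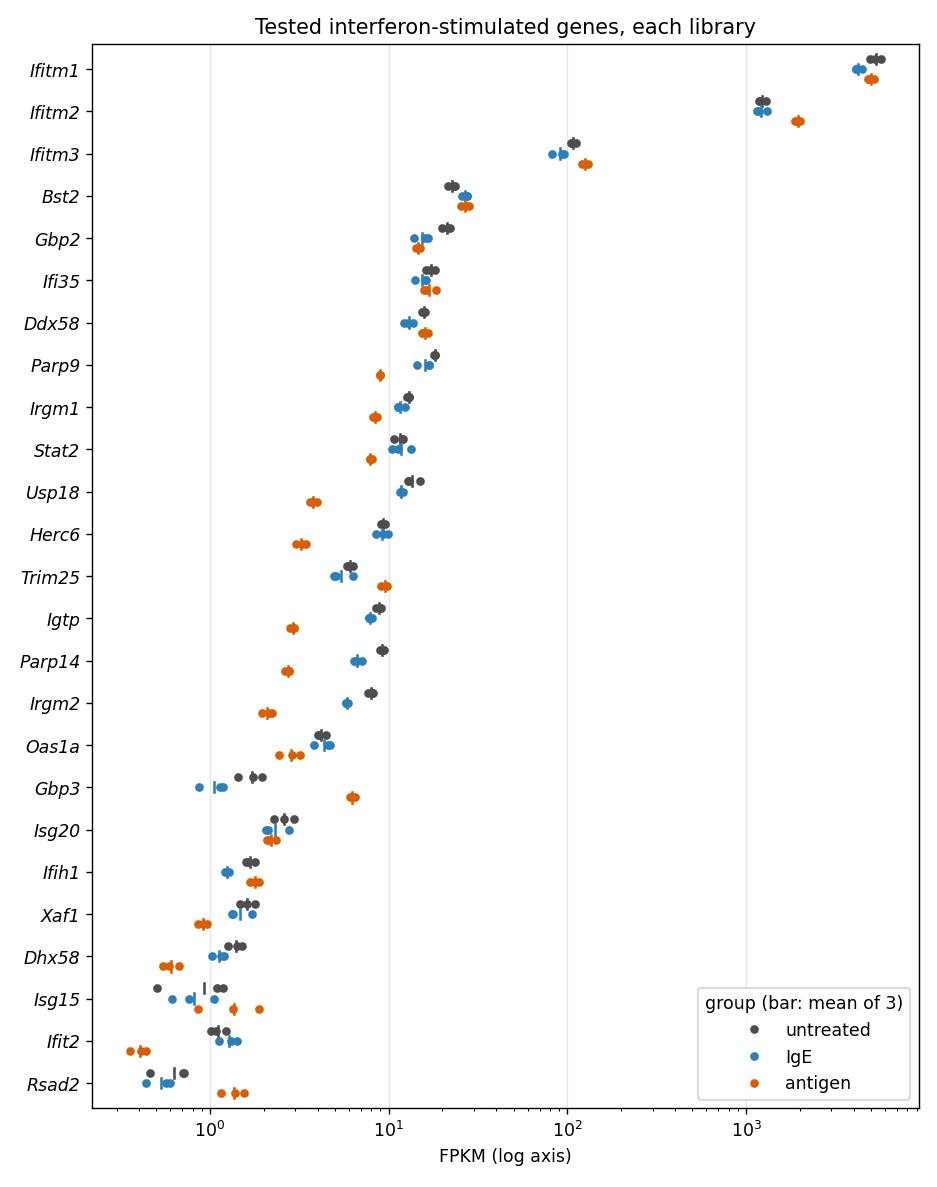
FPKM of the 25 tested interferon-stimulated genes (log axis), with each point 1 library, the short bars the means of 3 and the colours the 3 groups. Antigen libraries lie left of the other 6 for genes such as Usp18, Herc6, Igtp, Irgm2 and Parp14, and right of them for Gbp3, Trim25, Ifitm2 and Rsad2.

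The antigen group was compared with the IgE group to show what 2 h of receptor cross-linking adds to IgE alone. Usp18, Herc6, Igtp, Irgm2 and Parp14 all fell to well under their IgE level, by 1.42, 1.26, 1.18, 1.14 and 1.04 on the log2(FPKM + 1) scale, while Gbp3 rose by 1.82. With limma's adjusted p under 0.05, 12 of the 25 tested genes (48%) were lower, where 34.9% of all 10890 tested genes were, and 8 (32%) were higher, where 36.2% of all tested genes were. These shares stood near those of all genes, and the number of changed members is not read as a result about the list. Falls of at least 1 on the log2 scale were seen in 5 of 25 (20%), beside 3.18% of all tested genes, and rises of that size in 1 of 25 (4%), beside 7.34%. The median change over the 25 was -0.08, beside -0.01 over all tested genes. Antigen and IgE libraries did not overlap in 20 of the 25 (80%), where 74.2% of all tested genes did not overlap.

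Over all 38 genes, with no filter, 16 had all 3 antigen libraries below all 3 IgE libraries and 8 had them all above, where 20.4% and 20.1% of all genes in the table did so. The same fit without the filter called 15 lower and 7 higher, beside 25.2% and 26% of the 17019 genes then tested. The genes it added were Oasl1, Oasl2 and Zbp1, all lower, and it did not call Ifitm1.

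**Figure D2:**
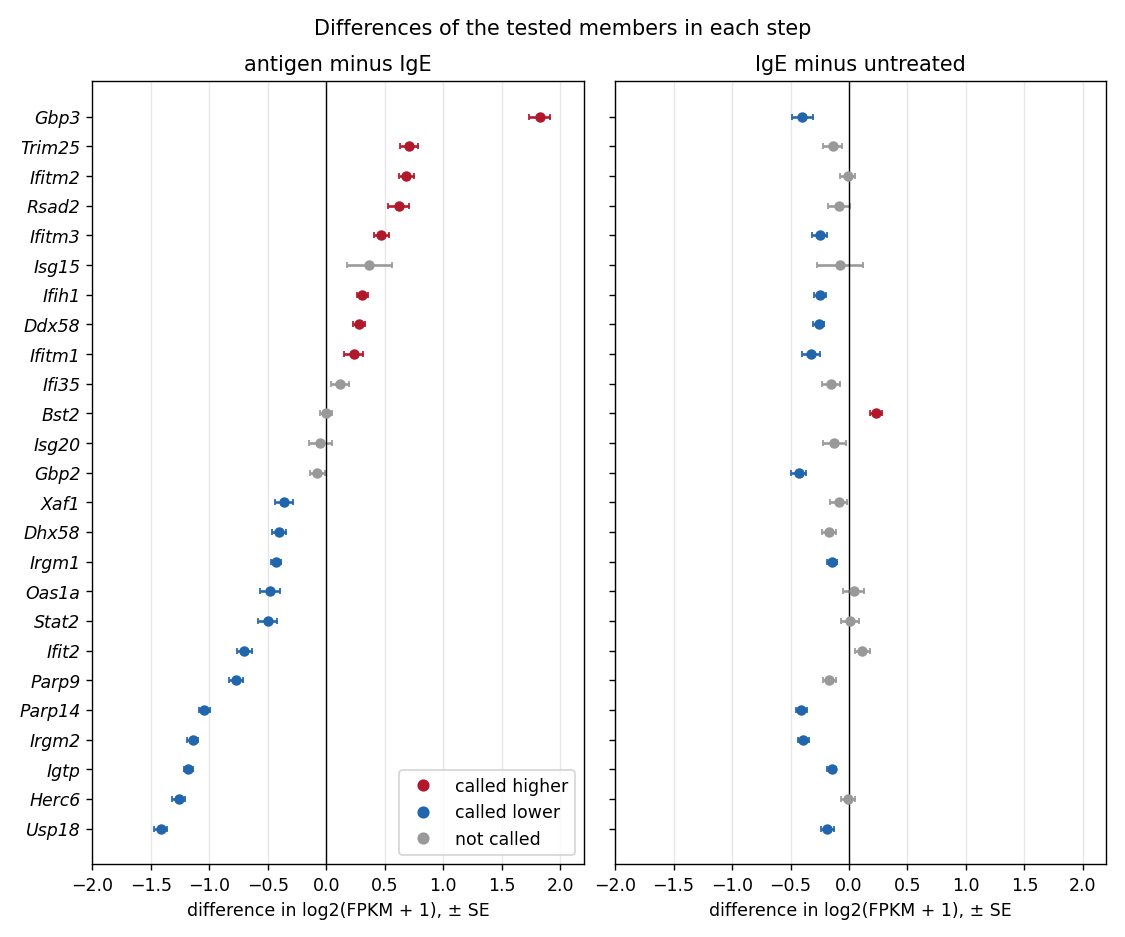
Differences in log2(FPKM + 1) with their standard errors for the 25 tested genes, antigen minus IgE on the left and IgE minus untreated on the right, in the order of the left panel. Colours mark limma calls at an adjusted p under 0.05, and the panels share the IgE libraries, so a low IgE value moves a gene left in 1 panel and right in the other.

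The IgE group was compared with untreated cells to show the effect of 18 h of IgE without antigen. Gbp2, Parp14, Gbp3 and Irgm2 fell by 0.43, 0.41, 0.40 and 0.39 on the log2(FPKM + 1) scale, and Bst2, with a rise of 0.23, was the only tested member called higher. In all, 11 of 25 (44%) were lower, where 13.1% of all tested genes were, and 1 of 25 (4%) was higher, where 14.5% were. The median change was -0.15, beside -0.01 over all tested genes, and 0 of the 25 changed by 0.5 or more on the log2 scale, where 0.79% of all tested genes were lower and 1.97% higher by that much. IgE and untreated libraries did not overlap in 15 of the 25 (60%), beside 43.2% of all tested genes. The number called lower dropped to 6 without untreated replicate 3, to 7 without untreated replicate 1 and to 7 when only these 2 groups entered the fit. Gbp2, Gbp3, Irgm2, Parp14, Ddx58 and Ifih1 were called lower in each fit that left out 1 library.

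The antigen group was also set beside untreated cells, the comparison that spans both steps and shares its libraries with the other comparisons. Here 13 of 25 (52%) were lower, where 34.4% of all tested genes were, and 6 of 25 (24%) were higher, where 37.2% were. The median change was -0.44, beside 0.00 over all tested genes. Of the 25, 5 (20%) were lower by at least 1 and 1 (4%) higher by as much, beside 3.78% and 7.41% of all tested genes, and the libraries did not overlap in 19 (76%), beside 78.3%. Usp18, Irgm2, Parp14, Igtp and Herc6 fell by 1.60, 1.53, 1.45, 1.33 and 1.27 on the log2 scale.

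Ligands and receptors come first in the pathway. None of the 13 listed interferon genes reached 1 FPKM in any library, and 9 of them were listed at 0 in all 9. Ifnb1, the gene of interferon beta, was at 0.0890 FPKM in untreated replicate 3 and at 0 elsewhere, and Ifnz, an interferon zeta gene, was the one found in every library, at 0.0855 to 0.303 FPKM. Of 8 tested receptor chains and Janus kinases, 4 rose and 1 fell with antigen compared with IgE, beside 36.2% and 34.9% of all tested genes. Jak2 rose from 49.9 ± 1.47 to 275 ± 3.54 FPKM (SD, n = 3; log2 2.44, adjusted p = 4.29e-10) and Ifngr2, a chain of the interferon gamma receptor, from 1.99 ± 0.129 to 5.14 ± 0.206 FPKM. Ifnar1 went from 8.52 ± 0.276 to 14.3 ± 0.286 FPKM, a rise of 0.68 on the log2 scale, and Jak1 rose by 0.45. Tyk2 was the gene that fell, by 0.37. With IgE alone, 3 of the 8 fell and 1 rose, beside 13.1% and 14.5% of all tested genes: Jak2, Ifnar2 and Jak1 fell by 0.25, 0.27 and 0.13 and Tyk2 rose by 0.10.

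Stat2 encodes the STAT protein particular to ISGF3. It was at 11.9, 12.1 and 10.7 FPKM in the untreated libraries, 11.3, 10.4 and 13.3 in the IgE libraries and 7.86, 7.82 and 8.05 in the antigen libraries. All antigen values lay below the other 6, which overlapped with each other. Stat2 fell by 0.50 with antigen (SE 0.0800, adjusted p = 0.000544) and did not pass the test with IgE (log2 0.01, adjusted p = 0.959). Irf9, which encodes another part of that complex, was at 17.2 ± 0.558 and 15.9 ± 0.681 FPKM (log2 -0.10, adjusted p = 0.0563).

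Of the 12 tested genes of a wider list of signalling factors, 4 rose and 7 fell with antigen compared with IgE, beside 36.2% and 34.9% of all tested genes. Irf1, a factor induced through GAS elements, fell from 21.9 ± 1.27 to 8.91 ± 0.717 FPKM (log2 -1.21, adjusted p = 4.43e-07), and Irf5 rose from 6.30 ± 0.161 to 52.4 ± 0.428 FPKM. Ptpn2, which encodes a phosphatase, fell from 117 ± 8.33 to 53.8 ± 0.711 FPKM. The feedback inhibitor Socs1 had the largest fall of the list, 2.68 on the log2 scale. With IgE alone 1 of the 12 rose and 5 fell, beside 14.5% and 13.1% of all tested genes, led by Ptpn2 at -0.30, with Ptpn6, another phosphatase, the gene that rose, by 0.22.

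Usp18, Isg15, Herc6 and Trim25 belong to the ISG15 system, in which the ubiquitin-like protein ISG15 is joined to other proteins. USP18 removes it and also blocks the interferon receptor, HERC6 is the mouse ligase for ISG15, and TRIM25 is a ubiquitin ligase for the RNA sensor RIG-I. Usp18 was at 13.0, 12.9 and 14.9 FPKM in untreated, 11.7, 11.97 and 11.6 in IgE and 3.95, 3.78 and 3.65 in antigen libraries. The antigen values lay far below the other 6, and no group overlapped another. Its fall with antigen was 1.42 (SE 0.0571, adjusted p = 1.21e-07), a ratio of means of 0.322. The smaller fall with IgE, 0.19 (adjusted p = 0.0432), lost its call in 7 of the 9 fits that left out 1 library (adjusted p = 0.0556 to 0.0995), namely without untreated replicate 1 or 3, any IgE replicate, or antigen replicate 1 or 2.

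Herc6 was at 9.24, 9.48 and 9.06 FPKM in untreated, 9.86, 9.25 and 8.49 in IgE and 3.42, 3.02 and 3.28 in antigen libraries. Untreated and IgE libraries overlapped (log2 -0.01, adjusted p = 0.930), and the antigen libraries lay below both, a fall of 1.26 (SE 0.0587, adjusted p = 2.74e-07). Trim25 went the other way, with 6.32, 6.03 and 5.87 FPKM in untreated, 5.05, 4.97 and 6.31 in IgE and 9.06, 9.53 and 9.85 in antigen libraries. It rose by 0.71 (SE 0.0786, adjusted p = 5.89e-05). Its change with IgE was -0.14 (adjusted p = 0.223), and without IgE replicate 3, the highest of that group, it was -0.23 (adjusted p = 0.00932). Uba7, which encodes the activating enzyme for ISG15, fell with antigen by 0.63 on the log2 scale. Ube2l6, which encodes a conjugating enzyme for ISG15, went the other way and rose by 0.27 (adjusted p = 0.0233).

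Isg15 itself was low and scattered, at 1.09, 0.507 and 1.18 FPKM in untreated, 1.06, 0.767 and 0.609 in IgE and 1.34, 1.89 and 0.855 in antigen libraries. The 3 groups overlapped, and the difference of 0.37 between antigen and IgE had an SE of 0.194 (adjusted p = 0.122). Without antigen replicate 3, the lowest of its group, it was 0.53 (adjusted p = 0.0201), and against untreated cells 0.45 (adjusted p = 0.0388) in place of 0.29 (adjusted p = 0.211). With all libraries kept, quantile normalization gave 0.54 against IgE (adjusted p = 0.0216) and 0.51 against untreated cells (adjusted p = 0.0266). The Isg15 promoter (250 bases before to 50 after the annotated start, chr4:156200769-156201068, minus strand, RefSeq, GRCm38.p6) is given because it is a textbook ISRE promoter against which the next ones can be read. Capitals mark 3 overlapping matches to the ISRE core GAAA-NN-GAAA, from position -78 to -57, where 0 is the first transcribed base.
Isg15: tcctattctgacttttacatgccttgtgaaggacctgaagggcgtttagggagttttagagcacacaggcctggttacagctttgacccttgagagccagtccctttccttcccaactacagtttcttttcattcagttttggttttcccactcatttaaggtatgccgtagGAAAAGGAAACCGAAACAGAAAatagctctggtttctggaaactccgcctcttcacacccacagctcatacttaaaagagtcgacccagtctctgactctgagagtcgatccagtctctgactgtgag

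The immunity-related GTPases (Irgm1, Irgm2, Igtp, Iigp1) and guanylate-binding proteins (Gbp2, Gbp3) gather on vacuoles that hold pathogens and are classic targets of interferon gamma. All 5 tested members were called lower with IgE than without it, beside 13.1% of all tested genes, and the calls of Igtp and Irgm1 were lost in several fits that left out 1 library. With antigen, Irgm1, Irgm2 and Igtp fell further and Gbp3 rose, while Gbp2 did not pass the test. Iigp1 was listed at 0 in all 9 libraries.

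Irgm2 was at 8.06, 7.62 and 8.21 FPKM in untreated, 5.93, 5.77 and 5.80 in IgE and 2.13, 1.95 and 2.22 in antigen libraries. The 3 groups were stepped with no overlap. The first step was a fall of 0.39 (SE 0.0468, adjusted p = 0.000972) and the second a fall of 1.14 (adjusted p = 1.33e-07). Igtp was at 8.95, 8.52 and 9.003 FPKM in untreated, 8.05, 7.71 and 7.81 in IgE and 2.94, 2.82 and 2.97 in antigen libraries. Nearly all of its difference lay in the second step, a fall of 1.18 (SE 0.0387, adjusted p = 3.80e-08). The first, 0.15 (adjusted p = 0.0235), lost its call without untreated replicate 1 or 3 or IgE replicate 2 (adjusted p = 0.0789 to 0.0847).

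Irgm1 was at 13.1, 13.1 and 12.7 FPKM in untreated, 12.3, 11.3 and 11.2 in IgE and 8.55, 8.36 and 8.18 in antigen libraries. It fell by 0.43 with antigen (SE 0.0428, adjusted p = 2.97e-05), less than its neighbours in function. Its fall of 0.14 with IgE (adjusted p = 0.0399) was kept in only 1 of the 9 fits that left out a library, the fit without IgE replicate 1 (adjusted p = 0.0557 to 0.124 in the other 8).

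The promoters of the 3 are printed because Igtp and Irgm2 fell most among them and carry the same arrangement of motifs. Capitals mark the GAS motif TTCNNNGAA and the ISRE core GAAA-NN-GAAA, each searched on both strands, and matches of the 2 motifs may overlap, as they do in Bst2 and Ifitm3. A GAS close to an ISRE core was not particular to genes that fell. In Bst2, not called with antigen (log2 -0.00166, adjusted p = 0.979), a GAS spans -136 to -128 and ISRE cores begin at -130 and -124. In Ifitm3, which rose, a GAS begins at 13 and ISRE cores at 2 and 19. In Igtp (chr11:58199306-58199605, plus strand) the GAS begins at -45 and the ISRE core at -34. In Irgm2 (chr11:58214727-58215026, plus strand) they begin at -75 and -64, with 2 bases between the motifs in both genes. Shifted by 30 bases to line up these motifs, with no gaps allowed, the promoters shared 184 of 270 bases (68.1%). Further upstream they share stretches that are out of register at this shift, so this share understates their likeness. Irgm1 (chr11:48871371-48871670, minus strand) has 2 overlapping ISRE cores from -30 to -15, no GAS match, and 26.7% identity to Igtp when aligned in the same way.
Igtp: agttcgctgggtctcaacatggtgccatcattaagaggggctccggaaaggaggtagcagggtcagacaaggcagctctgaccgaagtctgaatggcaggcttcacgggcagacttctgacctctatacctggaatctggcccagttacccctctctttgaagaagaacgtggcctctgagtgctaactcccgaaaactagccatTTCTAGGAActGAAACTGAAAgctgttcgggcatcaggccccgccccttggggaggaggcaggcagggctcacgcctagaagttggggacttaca
Irgm2: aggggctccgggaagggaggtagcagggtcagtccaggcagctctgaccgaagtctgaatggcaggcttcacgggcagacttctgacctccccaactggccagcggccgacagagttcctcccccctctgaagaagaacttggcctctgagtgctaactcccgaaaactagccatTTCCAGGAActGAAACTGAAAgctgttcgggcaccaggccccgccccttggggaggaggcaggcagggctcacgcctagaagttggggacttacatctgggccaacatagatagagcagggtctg
Irgm1: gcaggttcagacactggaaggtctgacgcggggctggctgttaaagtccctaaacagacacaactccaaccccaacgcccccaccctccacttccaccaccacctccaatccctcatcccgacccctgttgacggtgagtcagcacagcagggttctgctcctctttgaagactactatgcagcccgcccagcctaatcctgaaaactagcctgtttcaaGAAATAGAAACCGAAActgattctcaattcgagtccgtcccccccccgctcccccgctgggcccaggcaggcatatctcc

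Gbp3 was at 1.43, 1.97 and 1.75 FPKM in untreated, 1.18, 1.13 and 0.864 in IgE and 6.51, 6.09 and 6.21 in antigen libraries. Every antigen value was more than 3 times any other, and every IgE value was below every untreated one. The rise with antigen was 1.82 (SE 0.0864, adjusted p = 3.06e-07), a ratio of means of 5.92, after a fall of 0.40 with IgE (adjusted p = 0.0119). Gbp2, a family member on the same chromosome, was at 21.6, 19.8 and 21.9 FPKM in untreated, 15.9, 16.6 and 13.9 in IgE and 14.2, 14.9 and 14.6 in antigen libraries. It fell by 0.43 with IgE (SE 0.0654, adjusted p = 0.00271), and the antigen libraries overlapped the IgE ones (log2 -0.08, adjusted p = 0.325). Without IgE replicate 3 the second difference was -0.14 (adjusted p = 0.0318). The upstream Gbp3 promoter of 2 in the table (chr3:142559794-142560093, plus strand) is shown as the counterpart that rose. It holds 2 overlapping ISRE cores on the minus strand from -45 to -30, marked in capitals, and no GAS match.
Gbp3: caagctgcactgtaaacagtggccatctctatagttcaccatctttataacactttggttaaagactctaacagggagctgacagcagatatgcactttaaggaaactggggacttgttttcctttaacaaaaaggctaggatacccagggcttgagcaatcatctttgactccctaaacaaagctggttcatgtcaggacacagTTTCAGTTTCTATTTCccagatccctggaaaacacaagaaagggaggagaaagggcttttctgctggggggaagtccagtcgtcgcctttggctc

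Parp9 and Parp14 encode proteins of the ADP-ribosyltransferase family, and PARP9 works with the ubiquitin ligase DTX3L. Parp14 was at 9.25, 9.39 and 8.96 FPKM in untreated, 7.08, 6.38 and 6.62 in IgE and 2.77, 2.63 and 2.78 in antigen libraries. The groups were separate at each step, with falls of 0.41 (SE 0.0449, adjusted p = 0.000698) and 1.04 (adjusted p = 1.76e-07). Parp9 was at 18.0, 18.1 and 18.2 FPKM in untreated, 16.9, 16.8 and 14.3 in IgE and 8.997, 8.94 and 8.89 in antigen libraries. It fell by 0.77 with antigen (SE 0.0579, adjusted p = 5.01e-06). With IgE its change of -0.17 did not pass the test (adjusted p = 0.0627), although it passed without IgE replicate 3, the lowest of that group (log2 -0.10, adjusted p = 0.0277), and after each of the 3 other scalings. Dtx3l fell from 13.6 ± 0.433 to 6.34 ± 0.160 FPKM with antigen.

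The RNA sensors did not move as a block. Ddx58 encodes RIG-I, Ifih1 encodes MDA5, and Dhx58 encodes LGP2, a relative that lacks the signalling domains. Ddx58 was at 15.8, 15.3 and 15.9 FPKM in untreated, 13.8, 12.8 and 12.2 in IgE and 15.7, 15.4 and 16.6 in antigen libraries. It fell by 0.26 with IgE (SE 0.0486, adjusted p = 0.00647) and rose by 0.28 with antigen (adjusted p = 0.000923), so that antigen and untreated libraries overlapped. Ifih1 had the same shape, with 1.78, 1.63 and 1.59 FPKM, then 1.21, 1.27 and 1.25, then 1.88, 1.79 and 1.67. The IgE step was -0.25 (adjusted p = 0.00785) and the antigen step 0.31 (adjusted p = 0.000518). After quantile normalization the IgE step of Ifih1 was not called (log2 -0.19, adjusted p = 0.0603). Antigen libraries were then called higher than untreated ones (log2 0.25, adjusted p = 0.00741), which the main fit did not do (log2 0.06, adjusted p = 0.296).

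Dhx58 was at 1.41, 1.27 and 1.51 FPKM in untreated, 1.03, 1.15 and 1.20 in IgE and 0.548, 0.673 and 0.593 in antigen libraries. It fell by 0.41 with antigen (SE 0.0589, adjusted p = 0.000305), a call lost after quantile normalization (log2 -0.29, adjusted p = 0.0535). The reserve on the filter given above holds for this fall. Zbp1, a sensor of Z-form nucleic acid under the filter, was at 0.794, 0.711 and 0.628 FPKM in untreated, 0.272, 0.319 and 0.404 in IgE and 0.176, 0.210 and 0.154 in antigen libraries. These values were stepped without overlap, and in the fit without the filter both falls passed (adjusted p = 0.00246 and 0.0143). On the log2(FPKM + 1) scale the IgE step of Zbp1 was the larger, at -0.36 beside -0.17 for antigen. The ratios of means, 0.467 and 0.542, were much nearer to each other.

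Among 13 tested adaptors and kinases of nucleic acid sensing, 4 rose and 8 fell with antigen compared with IgE, beside 36.2% and 34.9% of all tested genes. Tmem173, which encodes STING, fell from 11.4 ± 0.396 to 3.59 ± 0.231 FPKM (log2 -1.43, adjusted p = 4.69e-08), the adaptor Myd88 fell from 31.6 ± 1.15 to 19.5 ± 0.304 FPKM, and Ikbke and Samhd1 fell by 0.55 and 0.59. With IgE alone 1 rose and 4 fell, beside 14.5% and 13.1% of all tested genes. The riser was Mb21d1, which encodes the DNA sensor cGAS, from 5.03 ± 0.289 to 6.90 ± 0.164 FPKM, while Tmem173 fell by 0.38.

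The IFITM proteins block virus entry at membranes, and BST2 (tetherin) holds budding virus at the cell surface. Ifitm2 was at 1198, 1175 and 1291 FPKM in untreated, 1176, 1306 and 1157 in IgE and 1997, 1884 and 1962 in antigen libraries. The first 2 groups overlapped and the antigen group lay above both, a rise of 0.68 (SE 0.0632, adjusted p = 1.85e-05) that was 0.38 under quantile normalization (adjusted p = 0.000445). Ifitm3 was at 105, 106 and 112 FPKM in untreated, 81.8, 93.9 and 95.9 in IgE and 126, 120 and 130.0 in antigen libraries. It rose by 0.47 with antigen (adjusted p = 0.000185), a call lost after quantile normalization (log2 0.18, adjusted p = 0.0624), and against untreated cells its rise of 0.22 (adjusted p = 0.0128) turned to -0.13 (adjusted p = 0.144) there. Its fall of 0.25 with IgE (adjusted p = 0.0202) lost its call without untreated replicate 3 (log2 -0.22, adjusted p = 0.0726).

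Ifitm1, the most abundant of the list, was at 5298, 4947 and 5709 FPKM in untreated, 4141, 4454 and 4105 in IgE and 4895, 4809 and 5227 in antigen libraries. IgE values lay below the other 6. The fall with IgE was 0.33 (SE 0.0785, adjusted p = 0.0173), not called without untreated replicate 1 or 3 or IgE replicate 1 (adjusted p = 0.0510 to 0.0583). It was also not called with only the 2 groups in the fit (adjusted p = 0.0619), without the filter (adjusted p = 0.178) or under quantile normalization, where it was -0.16 (adjusted p = 0.430). The rise with antigen was 0.23 (adjusted p = 0.0262) but -0.08 under quantile normalization (adjusted p = 0.611), and it was not called without IgE replicate 1 or 3 or antigen replicate 1 or 3 (adjusted p = 0.0526 to 0.114), or without the filter (adjusted p = 0.224). Bst2 was at 21.5, 23.2 and 23.6 FPKM in untreated, 25.8, 27.4 and 27.4 in IgE and 25.3, 28.1 and 27.2 in antigen libraries. Its rise of 0.23 came with IgE (SE 0.0515, adjusted p = 0.0130), and the antigen libraries overlapped the IgE ones.

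The oligoadenylate synthetases sense double-stranded RNA. Oas1a was at 4.05, 4.07 and 4.48 FPKM in untreated, 4.55, 4.69 and 3.83 in IgE and 2.87, 2.44 and 3.20 in antigen libraries. All antigen values were below the other 6, and the fall was 0.48 (SE 0.0889, adjusted p = 0.00127). Oasl1 and Oasl2, under the filter, had antigen values of 0.116 to 0.249 and 0.208 to 0.340 FPKM, beside 0.581 to 0.789 and 0.465 to 0.746 in IgE libraries. In the fit without the filter they fell by 0.54 (adjusted p = 0.00187) and 0.34 (adjusted p = 0.00748). Oas3 was at 0.0742 to 0.249 FPKM with overlapping groups, and Oas2 was at 0.0150 FPKM or less.

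The IFIT proteins bind viral RNA, and of the 3 only Ifit2 was tested. It was at 1.08, 1.24 and 1.01 FPKM in untreated, 1.31, 1.41 and 1.13 in IgE and 0.357, 0.414 and 0.440 in antigen libraries. The antigen values were all under the other 6, a fall of 0.70 (SE 0.0652, adjusted p = 1.95e-05) and a ratio of means of 0.315, with the reserve on the filter given above. Ifit1 was at 0.0235, 0.0251 and 0.0112 FPKM in untreated, 0.0216, 0.0188 and 0.0116 in IgE and 0.0151, 0 and 0.0132 in antigen libraries. These values were too low for a fall to be detectable at this depth, and no library was above 0.0251 FPKM. Ifit3 was at 0 in 7 of 9 libraries. The Mx GTPases, which trap viral nucleocapsids, were low as well, with Mx1 at 0.201 to 0.273 FPKM in untreated, 0.164 to 0.216 in IgE and 0.129 to 0.171 in antigen libraries and Mx2 at 0.0245 FPKM or less.

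Rsad2 encodes viperin, which turns CTP into a chain-ending nucleotide, and Cmpk2 is its neighbour on the chromosome and its partner in making CTP. Rsad2 was at 0.717, 0.465 and 0.711 FPKM in untreated, 0.598, 0.568 and 0.438 in IgE and 1.39, 1.56 and 1.15 in antigen libraries. It rose by 0.62 with antigen (SE 0.0901, adjusted p = 0.000306), a ratio of means of 2.55, with the reserve on the filter given above. Cmpk2 did not share that direction: its antigen values, 0.0970 to 0.133 FPKM, lay below the IgE values of 0.143 to 0.193, a difference of -0.06 in the fit without the filter (adjusted p = 0.108). Isg20, an exonuclease, was at 2.61, 2.94 and 2.28 FPKM in untreated, 2.12, 2.06 and 2.76 in IgE and 2.36, 2.13 and 2.07 in antigen libraries, with all groups overlapping and adjusted p = 0.647 for antigen versus IgE.

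Of the rest, Xaf1, a pro-apoptotic factor, fell with antigen from 1.46 ± 0.213 to 0.914 ± 0.0539 FPKM (log2 -0.36, adjusted p = 0.00216), a call lost after quantile normalization (log2 -0.26, adjusted p = 0.0704). The reserve on the filter given above holds for Xaf1 too. Ifi35 was at 17.1, 16.2 and 18.3 FPKM in untreated, 16.2, 15.9 and 14.1 in IgE and 18.5, 15.7 and 16.1 in antigen libraries. Antigen and IgE libraries of Ifi35 overlapped (log2 0.11, adjusted p = 0.206). Ifi44 was at 0 throughout, and Rtp4 was above 0 only in IgE replicates 1 and 3, at 0.0376 and 0.0404 FPKM.

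A longer list of 70 other interferon-stimulated genes, given by name, was read in the same fit. Of its 51 tested genes, 35 (68.6%) fell and 12 (23.5%) rose with antigen compared with IgE, beside 34.9% and 36.2% of all tested genes, and the list's median was -0.34. Guanylate-binding proteins Gbp4, Gbp6 and Gbp7, named after their values were seen, fell from 34.6 ± 1.44 to 15.5 ± 0.603, from 51.3 ± 2.13 to 26.6 ± 1.10 and from 21.3 ± 1.49 to 10.8 ± 0.205 FPKM, where Gbp3 rose. Parp10 fell by 0.99 on the log2 scale. The largest rises were in Tor3a, from 6.42 ± 0.101 to 41.2 ± 1.59 FPKM, Slfn2, from 17.7 ± 1.78 to 74.3 ± 3.03 FPKM, and Cd274, which encodes the checkpoint ligand PD-L1, from 17.5 ± 0.284 to 46.2 ± 1.65 FPKM. In the IgE step 18 (35.3%) fell and 4 (7.84%) rose, beside 13.1% and 14.5% of all tested genes. Ifi30, a lysosomal reductase, rose from 13.8 ± 0.978 to 23.6 ± 0.755 FPKM and Slfn9 and Mlkl rose by 0.53 and 0.39, while Gbp5 fell by 0.53. Gbp5 and Ddx60, both among the 18, passed the filter only through the untreated group, so their falls were built into the choice. Oas1c, which fell with antigen, passed it only through untreated and IgE libraries. Against untreated cells, 34 (66.7%) fell and 12 (23.5%) rose in the antigen group, beside 34.4% and 37.2% of all tested genes, with Tor3a 2.40 higher and Gbp4, Parp10 and Uba7 lower by 1.36, 1.11 and 0.82 on the log2 scale (named for the lowest adjusted p).

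**Figure D3:**
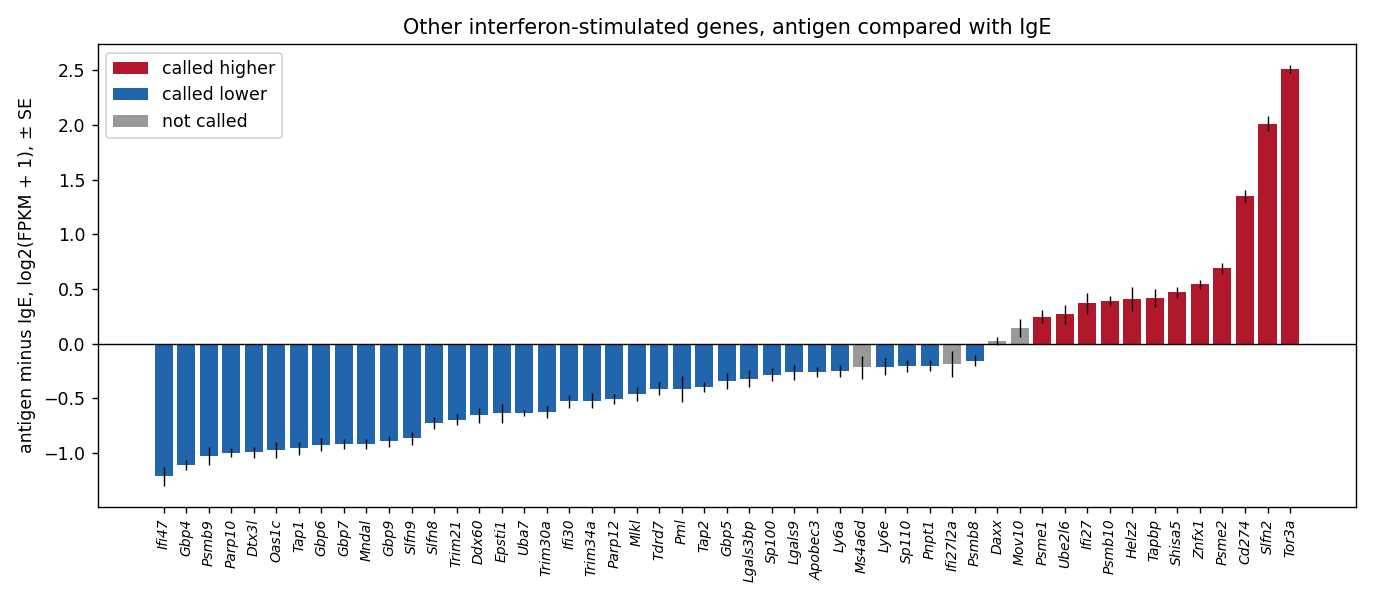
Antigen minus IgE difference in log2(FPKM + 1), with standard errors, for the 51 tested genes of the longer list, ordered from lowest to highest. Bars are coloured by limma's call: 35 lower, 12 higher and 4 not called.

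Promoter sequences were found in the RefSeq table for 28 of the 38 genes. An ISRE core GAAA-NN-GAAA, on either strand, was present in 17 of them (60.7%), beside 3.99% of the 27025 genes in the table, and a GAS TTCNNNGAA in 8 (28.6%), beside 9.55%. For a gene with several promoters, a match in any was counted. The ISRE core was found in 5 of the 8 matched genes that fell with antigen and in 6 of the 8 that rose. A GAS match was found in 4 of the 8 that fell (Ifit2, Igtp, Irgm2 and Oas1a) and in 1 of the 8 that rose (Ifitm3). Of the 5 matched genes not called, 3 had a GAS match (Bst2, Ifi35 and Isg20) and 3 an ISRE core. Usp18, Parp9, Parp14 and Dhx58, which also fell, were among the genes without a promoter sequence. With 8, 8 and 5 genes these are descriptions of letters in short windows, and no test was made. Herc6, Trim25, Xaf1 and Ifitm1 had neither motif in this window.

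**Figure D4:**
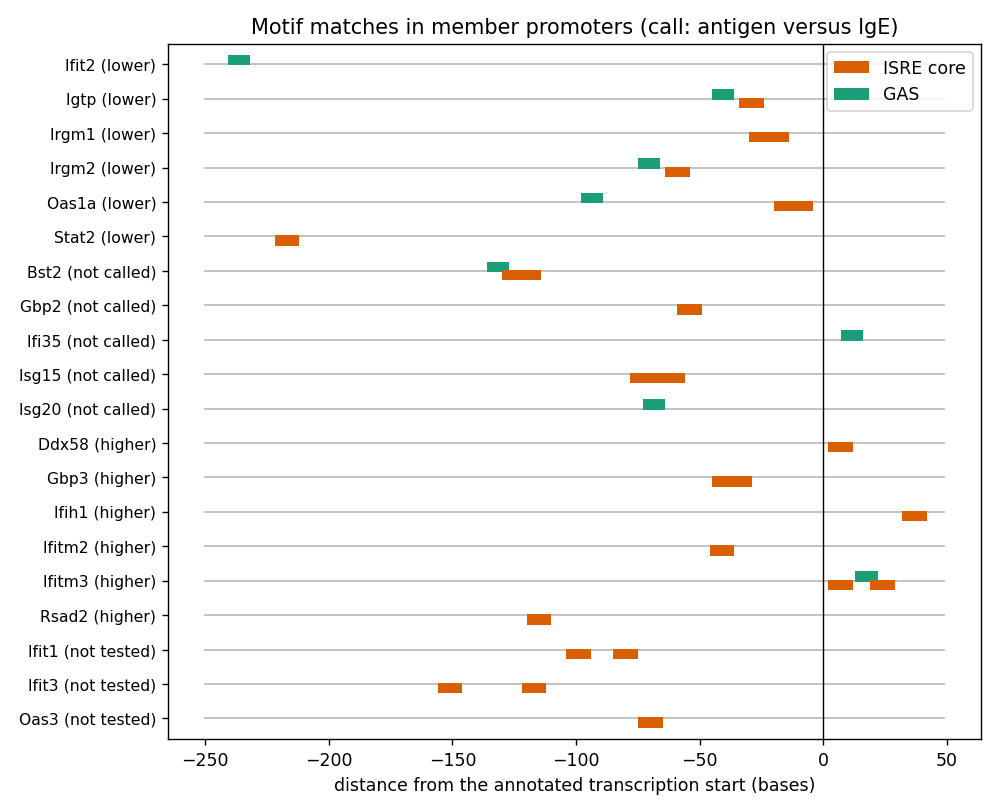
Positions of ISRE core (orange) and GAS (green) matches in the promoters of the listed genes that hold at least 1 match, as distance in bases from the annotated start at 0. Rows are grouped by the call for antigen versus IgE, and the paired GAS and ISRE matches of Igtp and Irgm2 sit 30 bases apart from each other with the same spacing.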

How the data were processed

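The table deposited by the authors holds FPKM, a read level per transcript length and per mapped library total, for 9 RNA libraries, grouped 3 by 3 from their titles. The submitters' processing notes name TopHat2 2.0.12, Bowtie 0.12.7 and mm9. What computed FPKM, with which annotation and strand setting, is not stated in any source read here, so reads shared by close paralogs (the Ifitm, Gbp, Oas and Ifit families, Irgm2 and Igtp) or by overlapping genes may be split in an unknown way.

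A gene was tested where 3 or more libraries reached 1 FPKM (10890 of 23951). The model was limma 3.58.1 (R 4.3.3) on log2(FPKM + 1) over all 9 libraries, with group means and a prior that follows intensity. Its p-values were two-sided and Benjamini-Hochberg adjusted within a comparison over every tested gene, and those under 0.05 were called. Fold changes on this scale understate low genes. The method was run on simulated data with independent normal values for each gene and library. Such data hold no shared library effects, so they cannot vouch for the calls here. Depth was estimated in 2966 genes with 1 transcript of over 1000 bases (GENCODE M21). It was the read total that brought values under 0.2 FPKM closest to whole reads, and covers counting error only. Its score was 0.388 against 0.360 for the next best total elsewhere in untreated replicate 3, and 0.511 against 0.389 in untreated replicate 2. The depths are therefore rough.

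The 38 genes, the other lists and the rule for full values were chosen with earlier results of these data known. Some results are not reported here. Values in every library were due for genes that were called, did not overlap and changed by at least 0.5 in any comparison, for 6 fixed genes (Isg15, Usp18, Stat2, Ifit1, Irgm1 and Ifitm3) and for the highest gene of each role group, and were added for other members. In other lists, up to 4 called genes with the smallest adjusted p were eligible, or, with none called, the 2 highest in FPKM. A few others, such as Gbp6, Gbp7, Dtx3l, Ube2l6, Irf9, Tyk2 and Ptpn6, were named after their values were seen. Promoters are RefSeq sequences of GRCm38.p6, a different build from mm9. The 12 alternatives covered the pseudocount, the filter, scaling, the prior, the libraries in the fit, a replicate block and leaving out libraries.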

Additional observations from a re-analysis of the deposited data

How the results depend on the processing

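Over 75 member values (25 genes in 3 comparisons) and 20 alternative fits, 1404 of 1500 kept their direction and side of the threshold, 50 lost a call, 15 gained one and 31 changed sign. For antigen versus IgE, leaving out 1 library gave 12 to 13 members lower and 7 to 8 higher, and the other alternatives 10 to 15 and 7 to 8. For antigen versus untreated these were 13 and 6 to 7, then 12 to 18 and 6 to 7. In IgE against untreated libraries, members lower ran from 6 to 11 and all genes from 1015 to 1942 higher and 880 to 1945 lower when 1 library was left out (the lowest without untreated replicate 1 for higher and 3 for lower), and members lower numbered 7 with only the 2 groups in the fit. The cause was not tested. Depth limits the genes under 1 FPKM.

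Apart from Ifitm1 and Ifitm3 under quantile normalization, the signs that changed were of differences without a call. With 1 library left out, the ranges for IgE versus untreated were Isg15 -0.246 to 0.021, Oas1a -0.00528 to 0.113, Stat2 -0.0796 to 0.0806, Ifitm2 -0.065 to 0.0297 and Herc6 -0.0564 to 0.041, for antigen versus IgE Isg20 -0.105 to 0.0427 and Bst2 -0.0324 to 0.0389, and for antigen versus untreated Ifi35 -0.104 to 0.00676 and Ddx58 -0.0114 to 0.0408. Stat2 with IgE was -0.00221 with median and -0.00138 with trimmed mean centring. Quantile normalization gave Isg20 0.0882 and Ifitm1 -0.0814 for antigen versus IgE, and Isg20 0.00555, Ddx58 -0.0462 and Ifitm3 -0.134 for antigen versus untreated. Leaving out replicate 3 of both IgE and antigen gave Isg15 0.00305, Stat2 -0.0796, Ifitm2 0.0222 and Herc6 0.0410 for IgE versus untreated, Isg20 0.0688 and Bst2 0.00275 for antigen versus IgE, and Ddx58 -0.0114 for antigen versus untreated.

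Same-numbered libraries of different groups correlated at -0.15 to 0.35 in their deviations from the group means, with 2 of 9 pairs over 0.1. The value of 0.35 was between untreated replicate 2 and IgE replicate 2. In all, 0 of 9 libraries were closest to their own number in both other groups. The labels do not state a pairing, and correlations of deviations from means of 3 libraries cannot exclude one. With a replicate block, members lower and higher numbered 10 and 1 (IgE versus untreated), 12 and 7 (antigen versus IgE), then 13 and 6 (antigen versus untreated). It took the call from Usp18 in the first (adjusted p = 0.0863) and Ifitm1 in the second (adjusted p = 0.0611).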
